A study of Homo sapiens with 12 samples.

Results

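The squamous differentiation genes described here are 10 genes that keratinocytes and other stratified epithelia switch on as they mature: SPRR1A, SPRR1B, SPRR3, IVL, SERPINB3, SERPINB4, AQP3, ELF3, EHF and CLCA2. They were selected by name, with earlier results of these arrays known, from 19775 genes on the array. Probe sets were kept where the annotation gave only that symbol, which left 25, and each gene was read from its probe set with the highest mean log2 intensity over the 12 arrays. A log2 intensity of 6 was used as the level below which a value is close to background, and genes at or above it on at least 4 arrays were tested (10157 genes in all). Of the 10 genes, 7 were tested. ELF3 passed on exactly 4 arrays, the 4 from 4GKD polysome pools, whereas IVL reached 6 on 2 arrays, SERPINB4 on 1 and SPRR3 on 0, so these 3 are given as values only.

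The study asked how DNA damage and eIF4G1, a scaffold protein of translation initiation, change which mRNAs are translated. It used MCF10A, a mammary epithelial line that is generally described as non-tumorigenic and basal-like, although its label names breast cancer as origin. Polysomes were separated on sucrose gradients, and RNA from a heavy pool (HMW), a light pool (LMW) and total RNA (Total) was put on arrays. The 4 conditions were 4GKD cells irradiated with 10 Gy, 4GKD cells mock-treated, WT cells irradiated with 10 Gy and WT cells mock-treated, and each gave 1 array per preparation. In 4GKD cells a short hairpin RNA against eIF4G1 was induced with doxycycline. The sources used here do not say what hairpin or drug the WT cells received, so effects of hairpin, doxycycline and eIF4G1 loss cannot be told apart. They do not give the harvest time either. Ribosome numbers are labelled for WT mock cells, with 4 or more in HMW and 1 to 3 in LMW. Nothing says that the arrays came from separate cultures, so no p-value below covers a spread between cultures. The spread behind each p-value is what its fit leaves over in these arrays, shared in part or in full over genes.

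In stratified epithelia, basal cells stop dividing, move upward and assemble a cornified envelope, a shell of cross-linked proteins beneath the plasma membrane. Involucrin and the small proline-rich proteins are substrates of the transglutaminases that build this shell. ELF3 and EHF are epithelial transcription factors of the ETS family, and AP-1 factors are known regulators of envelope genes. The remaining genes encode a water and glycerol channel (AQP3), protease inhibitors (SERPINB3 and SERPINB4) and a p53-regulated membrane protein of stratified epithelia (CLCA2).

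The 250 bases before the start of 5 of the genes are shown because SPRR1A, SPRR1B, AQP3 and ELF3 shared a pattern across the arrays, while IVL, which lies near the SPRR genes, did not. The sequences are from RefSeq (GRCh38.p14), written 5′ to 3′ on the strand of the gene. Capitals mark matches to the AP-1 motif TGANTCA, the ETS motif AGGAAG in either orientation, or the TATA motif, which reads TATAAA. The windows are chr1:152983831-152984080 (plus strand) for SPRR1A, chr1:153030953-153031202 (plus strand) for SPRR1B, chr1:152908296-152908545 (plus strand) for IVL, chr9:33447594-33447843 (minus strand) for AQP3 and chr1:202010337-202010586 (plus strand) for ELF3.
SPRR1A: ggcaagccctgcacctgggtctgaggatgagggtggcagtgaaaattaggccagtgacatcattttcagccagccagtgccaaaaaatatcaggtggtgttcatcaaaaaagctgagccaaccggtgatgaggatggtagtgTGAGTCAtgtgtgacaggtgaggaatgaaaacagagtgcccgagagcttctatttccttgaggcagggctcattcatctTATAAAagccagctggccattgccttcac
SPRR1B: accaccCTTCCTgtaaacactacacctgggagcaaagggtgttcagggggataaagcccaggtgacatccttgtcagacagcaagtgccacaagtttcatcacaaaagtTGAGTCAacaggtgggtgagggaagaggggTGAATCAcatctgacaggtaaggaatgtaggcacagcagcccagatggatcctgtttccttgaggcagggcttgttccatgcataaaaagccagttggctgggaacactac
IVL: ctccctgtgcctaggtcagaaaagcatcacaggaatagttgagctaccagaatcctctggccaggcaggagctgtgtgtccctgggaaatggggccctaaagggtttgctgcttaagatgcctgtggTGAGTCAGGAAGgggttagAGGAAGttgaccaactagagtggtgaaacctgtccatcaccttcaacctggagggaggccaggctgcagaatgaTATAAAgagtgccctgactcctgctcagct
AQP3: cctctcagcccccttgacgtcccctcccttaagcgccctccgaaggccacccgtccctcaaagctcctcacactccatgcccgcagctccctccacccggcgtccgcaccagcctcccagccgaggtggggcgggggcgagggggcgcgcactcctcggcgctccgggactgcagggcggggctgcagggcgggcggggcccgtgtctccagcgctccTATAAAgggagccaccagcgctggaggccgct
ELF3: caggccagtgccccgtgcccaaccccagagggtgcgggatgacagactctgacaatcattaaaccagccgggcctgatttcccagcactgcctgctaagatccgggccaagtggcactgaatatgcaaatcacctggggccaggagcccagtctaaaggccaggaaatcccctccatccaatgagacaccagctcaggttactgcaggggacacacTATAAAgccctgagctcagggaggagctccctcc

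In the table's window of 250 bases before to 50 after the start, searched on both strands, 5 of the 10 genes held TGANTCA, against 7.71% of all 35116 promoters of that length. These were SPRR1A at -108, SPRR1B at -141 and -111, SPRR3 at -170, IVL at -123 and CLCA2 at -160, counted from the start to the first base of the match. TATAAA was present in 6 genes (11.5% of all promoters) and AGGAAG in 6 (33.6%). A longer ETS motif, CCGGAAG, was present in 0 (10.3%). In IVL, an AGGAAG at -117 overlapped the AP-1 match by its first base. AQP3 and ELF3 shared the SPRR1A pattern on the arrays and held neither AP-1 nor AGGAAG letters in this window. The motifs are letters in a window and say nothing of binding.

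The knockdown was visible in its target. EIF4G1 lay at a log2 level of 6.45 to 7.56 in the 6 4GKD arrays and at 8.53 to 11.50 in the 6 WT arrays. Its 4GKD minus WT differences ran from -3.97 to -1.90 in the 6 matched pairs. A second probe set gave -4.11 to -0.44, with -0.44 (10 Gy) and -1.44 (mock) in LMW, where its WT levels were 6.23 and 7.14. The WT mock pools differed from the irradiated WT pools and from Total in more genes than other such pairs did. Between 10 Gy and mock, 1830 genes differed by at least 2-fold in WT HMW and 2041 in WT LMW, against 86 and 135 in the 4GKD pools. HMW and Total differed by at least 2-fold for 3478 genes in WT mock cells, against 1145 to 1400 in the other 3 conditions. Between genotypes this held in HMW only, with 1060 genes in the irradiated and 2328 in the mock pair, against 2748 and 2370 in LMW. Comparisons of pools are therefore also given for the irradiated pair alone, which leaves the WT mock pools out. Levels are relative within each array, and fewer cells of a type cannot be told apart from less RNA per cell.

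**Figure D1:**
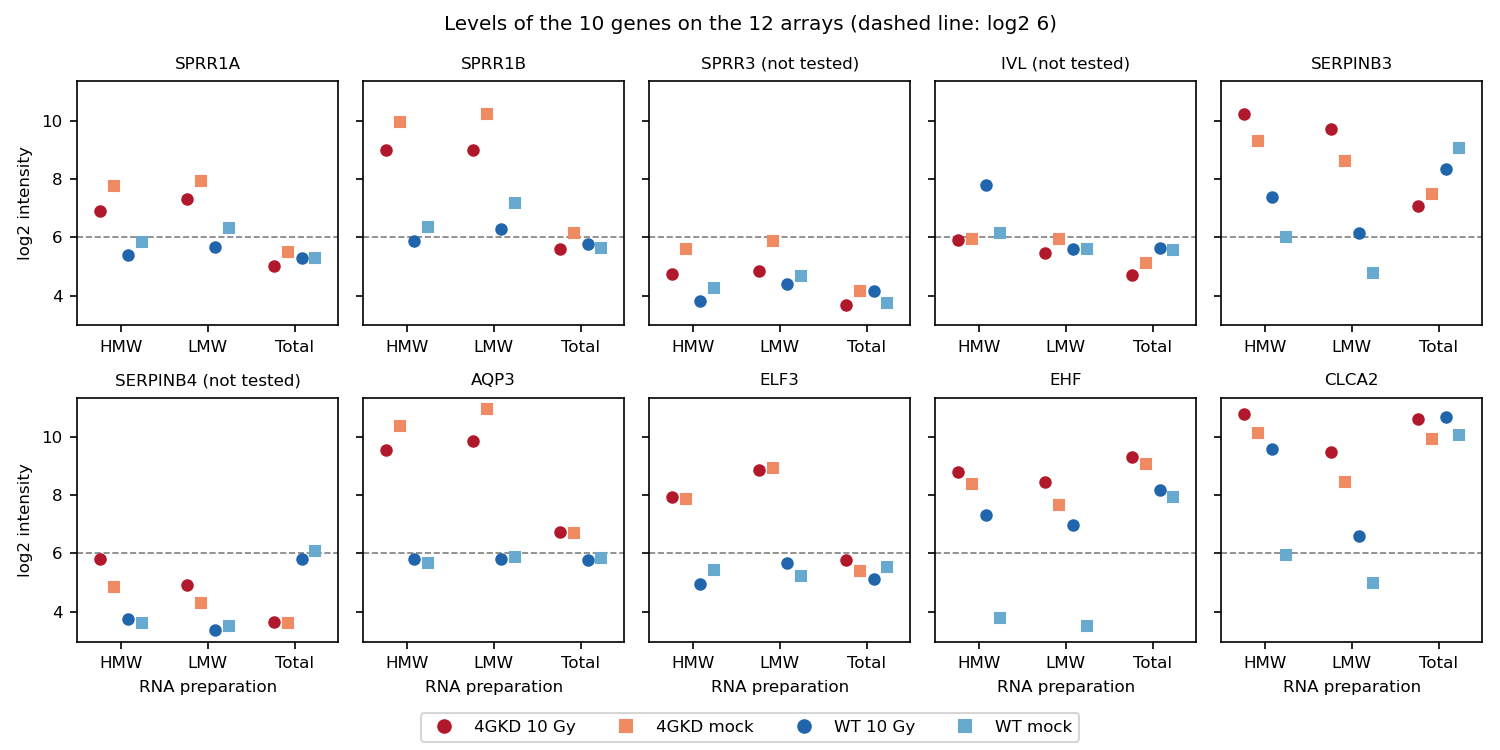
Log2 intensity (vertical axis) of the main probe set of each of the 10 genes in HMW, LMW and Total (horizontal axis), with 1 point per array: red circles 4GKD 10 Gy, orange squares 4GKD mock, blue circles WT 10 Gy, light blue squares WT mock, and a dashed line at 6. SPRR1B, AQP3 and ELF3 were high in the 4 4GKD pool arrays, whereas EHF and CLCA2 were high in Total and lowest in the WT mock pools.

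SPRR1A and SPRR1B encode small proline-rich envelope precursors. In the polysome pools of 4GKD cells both were well above WT, and in Total both were near background in every condition. SPRR1B had log2 levels of 8.99 (10 Gy) and 9.96 (mock) in 4GKD HMW, against 5.87 and 6.34 in WT HMW. In LMW it had 9.02 and 10.24 in 4GKD cells, against 6.30 and 7.17 in WT cells. In Total its levels were 5.59 and 6.14 in 4GKD cells, against 5.78 and 5.65 in WT cells. All 4 4GKD pool arrays lay above all 4 WT pool arrays, while the genotypes overlapped in Total. Where the WT level was above 6, SPRR1B was 12.3-fold higher in 4GKD than in WT HMW (mock), and 6.60-fold (10 Gy) and 8.40-fold (mock) higher in LMW.

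SPRR1A had levels of 6.92 (10 Gy) and 7.78 (mock) in 4GKD HMW, against 5.40 and 5.85 in WT HMW. In LMW they were 7.31 and 7.94 in 4GKD cells, against 5.66 and 6.33 in WT cells, and the highest Total value was 5.49. The 4GKD pools again did not overlap the WT pools. Its second probe set separated the arrays further, with 6.73 to 8.44 in the 4 4GKD pool arrays and 2.97 to 3.54 on the other 8. The 4GKD minus WT difference in pools was thus 1.52 to 1.94 by the main and 3.19 to 4.94 by the second probe set. SPRR3, from the same family, stayed below 6 on all 12 arrays. Its levels were 4.73 (10 Gy) and 5.59 (mock) in 4GKD HMW, against 3.82 and 4.25 in WT HMW, and 4.86 and 5.88 in 4GKD LMW, against 4.39 and 4.68 in WT LMW. In Total they were 3.67 and 4.16 in 4GKD cells, against 4.14 and 3.75 in WT cells. Values this close to background give no exact size.

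AQP3, the channel that carries water and glycerol in basal and suprabasal epidermis, had levels of 9.57 (10 Gy) and 10.37 (mock) in 4GKD HMW, against 5.82 and 5.69 in WT HMW. AQP3 had 9.87 and 10.98 in 4GKD LMW, against 5.80 and 5.89 in WT LMW. In Total it had 6.75 and 6.71 in 4GKD cells, against 5.79 and 5.86 in WT cells. All 6 WT arrays were below 6 and all 6 4GKD arrays above it. With WT at background the differences have no exact size. The other 2 AQP3 probe sets gave smaller 4GKD minus WT differences, from 0.55 to 1.44 in the pools and from -0.18 to 0.14 in Total.

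ELF3, an ETS factor of differentiating epithelium, had levels of 7.95 (10 Gy) and 7.87 (mock) in 4GKD HMW, against 4.96 and 5.42 in WT HMW. In LMW they were 8.86 and 8.93 in 4GKD cells, against 5.69 and 5.22 in WT cells. Outside the 4GKD pools ELF3 was below 6 on all 8 arrays, with 5.77 and 5.39 in 4GKD Total, against 5.14 and 5.54 in WT Total. HMW minus LMW was -0.91 (10 Gy) and -1.07 (mock) in 4GKD cells. Its other 2 probe sets stayed below 6 on every array, so the pattern rests on the main probe set alone.

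EHF, the other ETS factor, followed another course. It was present in Total of every condition, with 9.33 (10 Gy) and 9.06 (mock) in 4GKD cells, against 8.19 and 7.96 in WT cells. In HMW its levels were 8.79 and 8.40 in 4GKD cells, against 7.31 and 3.77 in WT cells. In LMW they were 8.45 and 7.66 in 4GKD cells, against 6.97 and 3.50 in WT cells. The WT mock pools, at background, stood far below all other arrays. The 4GKD minus WT difference was accordingly 4.63 in HMW and 4.16 in LMW of mock cells, and 1.48 in each pool of irradiated cells. The other 5 EHF probe sets never reached 6.

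CLCA2, a membrane protein induced by p53 in stratified epithelia, was well above background in Total. There it had 10.62 (10 Gy) and 9.94 (mock) in 4GKD cells, against 10.70 and 10.08 in WT cells, and the genotypes overlapped. In HMW its levels were 10.81 and 10.14 in 4GKD cells, against 9.60 and 5.96 in WT cells. In LMW they were 9.48 and 8.44 in 4GKD cells, against 6.61 and 4.97 in WT cells. As with EHF, the WT mock pools were lowest. The 4GKD minus WT difference in HMW was 4.18 in mock cells and 1.20 in irradiated cells, and in LMW it was 3.47 and 2.87. The other 3 CLCA2 probe sets had the same sign in all 4 pool pairs, from 0.89 to 3.35. In the Total pairs they ran from -0.37 to 0.20.

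SERPINB3, an intracellular inhibitor of cysteine proteases, differed in opposite directions in pools and in Total. Its levels in HMW were 10.24 (10 Gy) and 9.30 (mock) in 4GKD cells, against 7.38 and 6.001 in WT cells. In LMW they were 9.71 and 8.62 in 4GKD cells, against 6.15 and 4.76 in WT cells. In Total they were 7.07 and 7.49 in 4GKD cells, against 8.35 and 9.08 in WT cells. 4GKD cells were thus higher by 2.86 to 3.85 over the 4 pool pairs and differed by -1.59 and -1.27 in the Total pairs, with no overlap in either. The second probe set gave 2.70 to 3.09 in pools and -1.60 to -1.10 in Total.

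SERPINB4 lies next to SERPINB3 on chromosome 18 with 0 protein-coding genes between them, encodes a close relative that inhibits chymotrypsin-like serine proteases, and shared 296 of 300 promoter bases with it (98.7%). SERPINB4 was below 6 on 11 of 12 arrays. Its levels were 5.82 (10 Gy) and 4.86 (mock) in 4GKD HMW, against 3.76 and 3.63 in WT HMW, and 4.90 and 4.31 in 4GKD LMW, against 3.35 and 3.49 in WT LMW. In 4GKD Total it had 3.66 and 3.60, against 5.80 and 6.10 in WT Total. The signs were those of SERPINB3, at levels close to background. A probe set annotated to both genes was not used for either, and the 2 genes are near-identical copies, so signal may be shared between their probe sets.

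IVL encodes involucrin, the classical envelope precursor, and did not share the pattern of the SPRR genes. Its levels were 5.92 (10 Gy) and 5.95 (mock) in 4GKD HMW, against 7.79 and 6.14 in WT HMW. The LMW levels were 5.45 and 5.94 in 4GKD cells, against 5.60 and 5.59 in WT cells. In Total they were 4.71 and 5.13 in 4GKD cells, against 5.65 and 5.57 in WT cells. The irradiated WT HMW array was the highest, and only the 2 WT HMW arrays reached 6. The 4GKD minus WT differences ran from -1.87 to 0.35 in the pools and from -0.94 to -0.44 in Total.

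**Figure D2:**
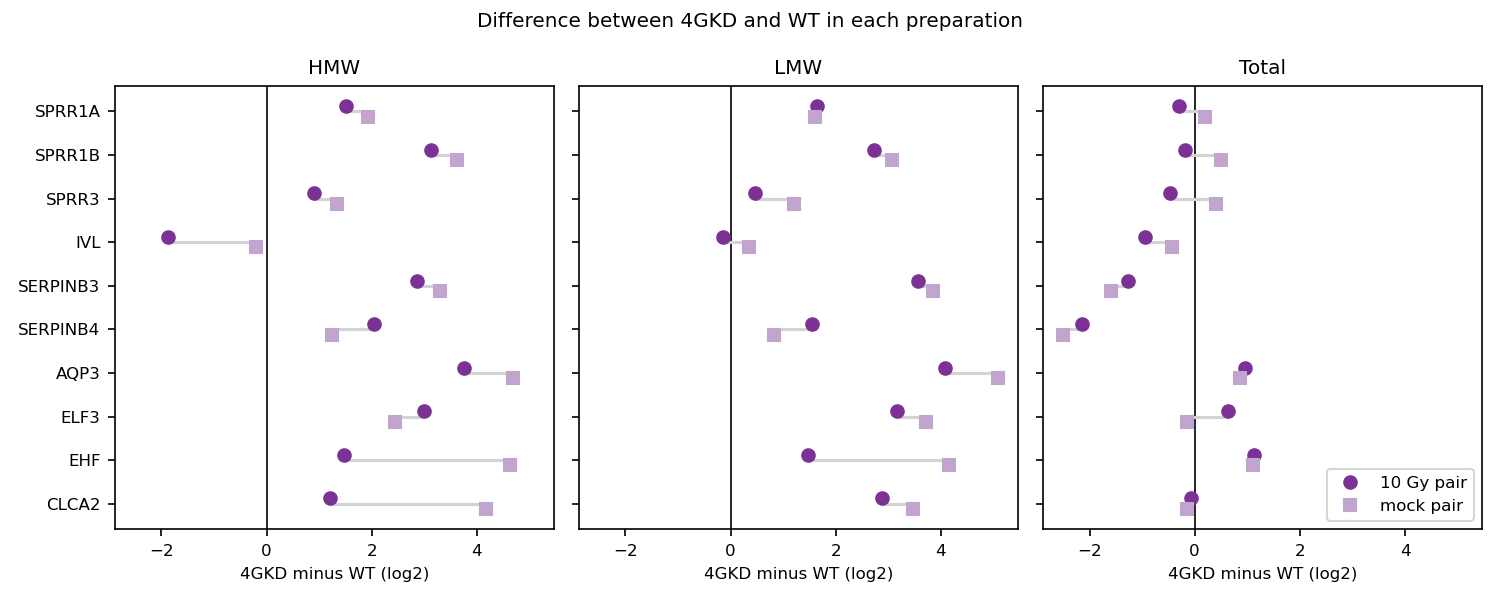
Difference between 4GKD and WT (log2, horizontal axis) for each gene (rows) in HMW, LMW and Total (panels), with circles for the 10 Gy pair, squares for the mock pair and a grey line joining them. In the pools 9 of the 10 genes lie to the right of 0 in all 4 pairs and IVL does not, while in Total SERPINB3, SERPINB4, IVL and CLCA2 lie to the left.

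Read as a whole, the knockdown comparison asks which mRNAs differ between 4GKD and WT cells in each preparation. All 7 tested genes were at least 2-fold higher in 4GKD in all 4 pool pairs, where 2.03% of the 10157 tested genes were. SPRR1A, SPRR1B, SERPINB3, AQP3, ELF3 and CLCA2 were in addition less than 2-fold higher in both Total pairs (1.45% of tested genes), and EHF was not. SERPINB3 and CLCA2 were higher in all 4 pool pairs and lower in both Total pairs (3.62%). The genes were selected with these differences known, and SPRR1A, AQP3 and ELF3 passed the filter mainly through 4GKD arrays, so nothing is read from these shares and no p-value of these 10 genes is given for the pools. Without the WT mock pools, the irradiated pair gave 1.52 and 1.65 for SPRR1A, 3.12 and 2.72 for SPRR1B, 3.75 and 4.07 for AQP3, and 2.99 and 3.17 for ELF3 in HMW and LMW. For EHF it gave 1.48 in each pool, against 4GKD minus WT averages of 3.05 in HMW and 2.82 in LMW over both pairs. CLCA2 had 1.20 in HMW, against an average of 2.69 over both pairs, and 2.87 in LMW.

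Total RNA gave a smaller and mixed picture. In limma, EHF (difference 1.12, SE 0.10, adjusted p = 4.08e-05) rose in 4GKD Total, where 20.7% of all tested genes rose and 19.8% fell. In a single limma fit of all 12 arrays it did not pass there (adjusted p = 0.63). SPRR1B (0.15, adjusted p = 0.593) and CLCA2 (-0.11, adjusted p = 0.389) did not pass. AQP3 averaged 0.91 higher in 4GKD Total on its main probe set and -0.062 by the median of its 3 probe sets. No p-value is given for AQP3, since it passed the filter through 4GKD arrays only and its WT Total levels were at background. SPRR1A and ELF3 were below 6 on every Total array, so a difference there would not be detectable.

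Setting the pools against Total within each condition gives a 4GKD minus WT difference of pool against Total, a description without a test. For HMW minus Total it was 1.81 (10 Gy) and 1.74 (mock) for SPRR1A, 3.31 and 3.13 for SPRR1B, 2.80 and 3.83 for AQP3, and 2.35 and 2.59 for ELF3. SERPINB3 had 4.13 and 4.89 for HMW minus Total and 4.84 and 5.44 for LMW minus Total. EHF had 0.34 after 10 Gy and 3.52 in mock cells, so its difference in irradiated cells was about as large in Total as in HMW. CLCA2 had 1.27 and 4.32.

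The comparison of preparations asks where on the gradient these mRNAs were found. In limma with the condition as a block, CLCA2 (difference 1.75, SE 0.31, adjusted p = 0.0067), SERPINB3 (0.92, SE 0.17, adjusted p = 0.00729) and EHF (0.43, SE 0.14, adjusted p = 0.0478) were higher in HMW than in LMW, as were 19.6% of tested genes. CLCA2 was higher in HMW by 0.99 to 2.99 in the 4 conditions and SERPINB3 by 0.53 to 1.24. SERPINB3 was at background in WT mock LMW (4.76). With values below 6 set to 6, SERPINB3 (0.61, adjusted p = 0.0637) and EHF (0.36, adjusted p = 0.123) lost their calls in limma. EHF also lost its call when any of the 4 conditions was left out, and in a fit of all 12 arrays neither CLCA2 (adjusted p = 0.0535) nor SERPINB3 (adjusted p = 0.431) passed. ELF3 was at -0.62 (adjusted p = 0.0608), and SPRR1A, SPRR1B and AQP3 lay between -0.39 and -0.27 and did not pass.

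Against Total, SPRR1B was higher in both pools, and EHF and CLCA2 were lower in LMW. HMW minus Total averaged 2.00 for SPRR1B, with 1.54 without irradiated 4GKD cells and 1.39 without mock 4GKD cells. With values below 6 set to 6 it averaged 1.79. In LMW, SPRR1B (2.39) was higher than in Total (28.5% of tested genes by limma). No p-value is given for SPRR1B, since it passed the filter mainly through pools. It reached 6 on 8 arrays, of which 1 was a Total array, and its Total levels were 5.59 to 6.14. CLCA2 (-2.96, adjusted p = 0.00532) and EHF (-1.99, adjusted p = 0.0139) were lower in LMW than in Total by limma (28.1%). LMW minus Total averaged 1.54 for SPRR1A, 1.86 for AQP3 and 1.71 for ELF3. These 3 have no p-value, since SPRR1A and ELF3 passed the filter through pools only, with Total at background, and AQP3 through 4GKD arrays only. These averages cover unlike conditions. SPRR1B was higher in LMW than in Total by 3.43 and 4.10 in 4GKD cells and by 0.52 and 1.52 in WT cells, and AQP3 by 3.12 and 4.26 in 4GKD cells and by 0.01 and 0.03 in WT cells. LMW minus Total for EHF was -0.88 and -1.4 in 4GKD cells, -1.22 in irradiated WT cells and -4.46 in mock WT cells.

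**Figure D3:**
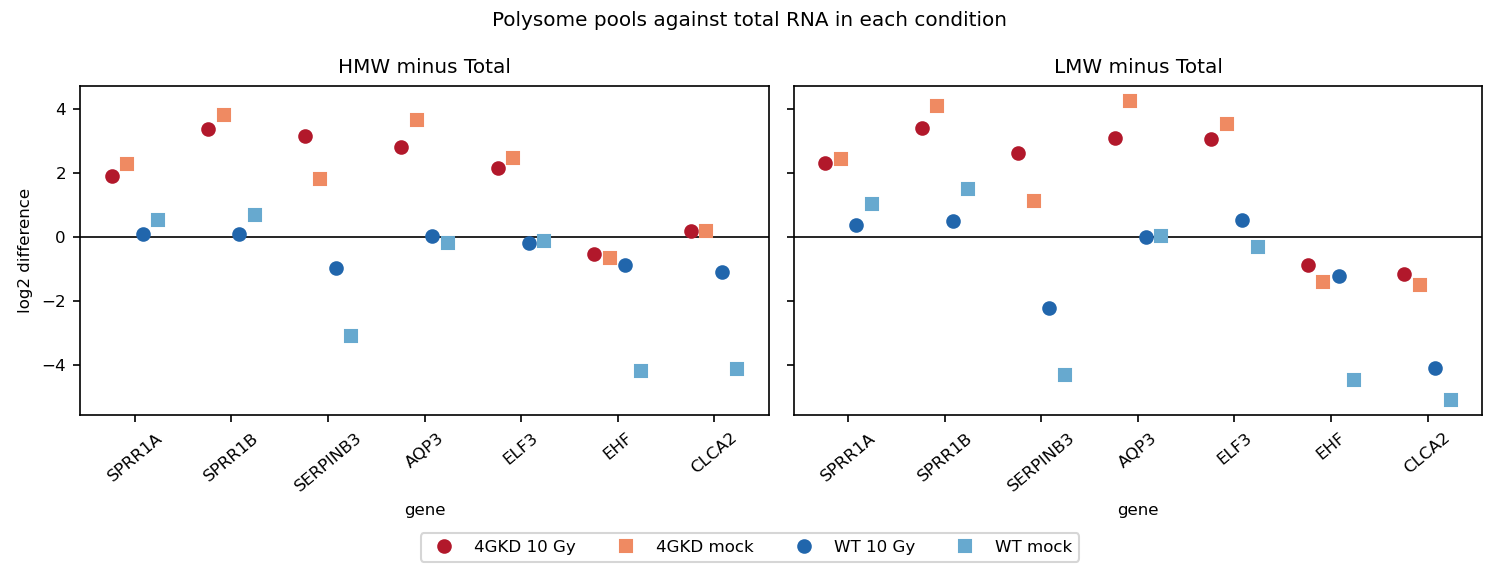
Log2 difference between HMW and Total (left panel) and between LMW and Total (right panel) for the 7 tested genes (horizontal axis), with 1 point per condition in the colours named in the legend. SPRR1A, SPRR1B, AQP3 and ELF3 lie well above 0 in 4GKD cells and near it in most WT conditions, and SERPINB3, EHF and CLCA2 are lowest in WT mock cells.

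Irradiation was compared within each genotype and over both. EHF rose with 10 Gy in HMW (difference 1.96, SE 0.41, adjusted p = 0.0024, where 0.463% of tested genes rose) and in LMW (2.13, SE 0.40, adjusted p = 0.00106, where 0.345% rose) by limma. CLCA2 rose in HMW (2.16, SE 0.41, adjusted p = 0.000423) and in Total (0.65, SE 0.09, adjusted p = 0.0274, where 0.128% rose). The pool differences were unequal between genotypes: EHF had 0.39 in 4GKD HMW against 3.54 in WT HMW, and CLCA2 had 0.67 against 3.65. In LMW, EHF had 0.79 in 4GKD cells against 3.47 in WT cells. The WT values are set against the WT mock pools that stood apart. In these pool fits the spread is pooled over all genes, so that disagreement does not enter the p-values, and in a fit of all 12 arrays EHF and CLCA2 passed in no preparation. EHF in the WT mock pools was at background, and with values below 6 set to 6 its difference was 0.85 in HMW (adjusted p = 0.642) and 0.88 in LMW (adjusted p = 0.728) by limma. EHF also missed the threshold in HMW with quantile normalisation (adjusted p = 0.0576) and in LMW with the filter at 7 (adjusted p = 0.0873). The CLCA2 difference in Total was 0.69 in 4GKD cells and 0.62 in WT cells, and its call was lost in limma by the median of probe sets (adjusted p = 0.0983) and without an intensity trend (adjusted p = 0.3).

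Differences of at least 2-fold between 10 Gy and mock were counted without a test, since each sets 1 array against 1. In WT cells SERPINB3, EHF and CLCA2 were at least 2-fold higher after 10 Gy in HMW (15.8% of tested genes) and in LMW (15.9%). In 4GKD LMW, SERPINB3 (1.10) and CLCA2 (1.04) were at least 2-fold higher (0.226%), and SPRR1B (-1.22) and AQP3 (-1.11) at least 2-fold lower (1.1%). SPRR1A, SPRR1B and SPRR3 were lower after 10 Gy in all 4 comparisons within pools, with differences from -1.22 to -0.29. SPRR3 was not tested, and SPRR1A and SPRR1B did not pass in limma, with SPRR1B in LMW at -1.04 (adjusted p = 0.478). IVL was at 1.65 in WT HMW and between -0.49 and 0.08 in the other 5 comparisons.

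**Figure D4:**
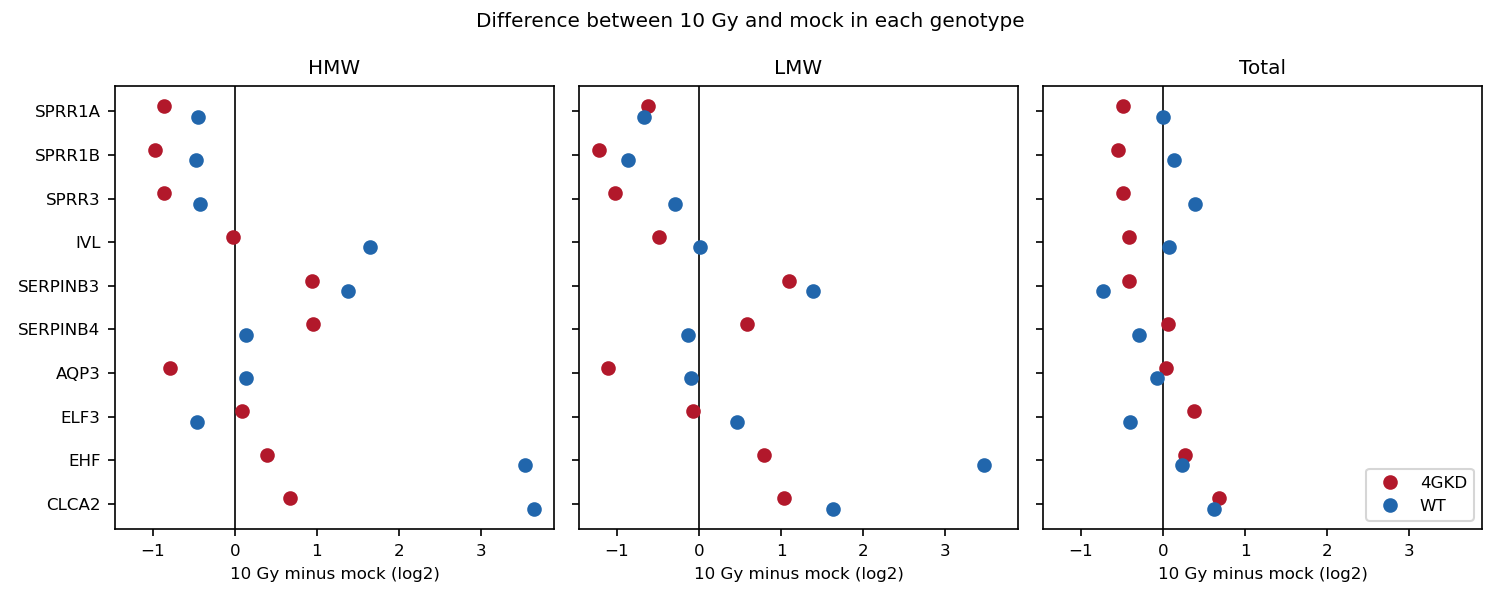
Difference between 10 Gy and mock (log2, horizontal axis) for each gene (rows) in HMW, LMW and Total (panels), with red points for 4GKD and blue points for WT. EHF and CLCA2 in WT HMW, at 3.54 and 3.65, lie far to the right of their 4GKD values, and in Total all differences are between -0.73 and 0.69.

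Over the 12 arrays the tested genes formed the patterns described. The Pearson correlation of log2 levels was 0.99 between SPRR1A and SPRR1B, 0.97 between AQP3 and ELF3, 0.95 between SPRR1B and AQP3 and 0.91 between EHF and CLCA2, against 0.03 between SPRR1A and EHF and -0.05 between SPRR1A and CLCA2. The points share arrays and conditions, so these values describe the same contrasts again. Among all tested genes, MMP10, a matrix metalloproteinase, was among the 3 most like SPRR1A (0.95), SPRR1B (0.98) and AQP3 (0.97). ID2, an inhibitor of helix-loop-helix factors, was among those most like SPRR1A (0.95), SPRR1B (0.97) and ELF3 (0.96). INHBA, a subunit of activin, was most like EHF (0.99), BICC1, an RNA-binding protein, most like CLCA2 (0.99), and ACAT1, a mitochondrial thiolase, most like SERPINB3 (0.94).

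**Figure D5:**
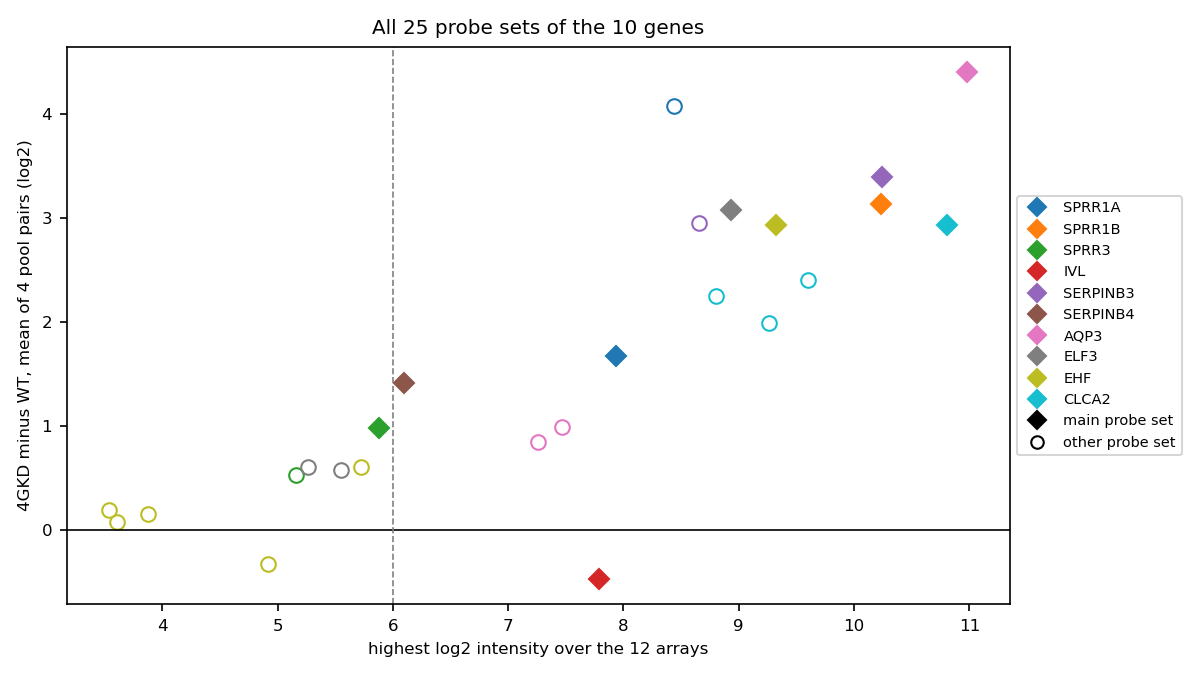
Mean difference between 4GKD and WT over the 4 pool pairs (log2, vertical axis) against the highest log2 intensity over the 12 arrays (horizontal axis) for all 25 probe sets of the 10 genes, with filled diamonds for main and open circles for other probe sets, coloured by gene. The 9 probe sets left of the dashed line at 6 lie between -0.33 and 0.98, and IVL is the only probe set right of it below 0.

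Other genes of the programme were higher, lower or at background. Of 35 further cornified envelope genes on the array, 20 were below 6 on every array, among them LORICRIN and FLG, the precursors of the late envelope and the granular layer. Of the 15 tested, limma found 4 higher and 1 lower in 4GKD HMW, where 5.82% of all tested genes rose and 4.09% fell. In LMW 5 rose and 1 fell, against 10.3% and 5.1% of all tested genes. In Total 5 rose and 2 fell, against 20.7% and 19.8%. SCEL was among those that rose in each preparation. It reached 6 on the 4GKD HMW and Total arrays only (6.72 to 7.38), so it was tested through 4GKD arrays alone. The list's median difference was 0.34 in HMW, 0.04 in LMW and 0.06 in Total, against medians of all tested genes of -0.0049, -0.0017 and 0.03. PPL, a plakin of the envelope and of desmosomes, rose by 3.32 in HMW, 2.61 in LMW and 1.60 in Total, and DSC2, a desmosomal cadherin, by 2.71, 2.69 and 0.80. PPL was below 6 throughout the WT pools (5.54 to 5.93). DSC2 was below 6 in WT mock HMW (5.40) and in WT LMW (4.90 after 10 Gy, 4.30 in mock cells). Pool differences set against these levels have no exact size. In the irradiated pair alone DSC2 was at 1.52 in HMW. LCE3D, a late cornified envelope protein, fell in HMW (-1.32), LMW (-1.51) and Total (-0.71). Its HMW call was lost with the filter at 7 (adjusted p = 0.0602 in limma) and with quantile normalisation (adjusted p = 0.0527).

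Of 13 suprabasal and stress keratins listed, 9 could be read. KRT6A, KRT6B, KRT6C and KRT17 had no probe set with that symbol alone, so nothing is said of them. KRT1, KRT2, KRT4, KRT13, KRT23 and KRT78 were below 6 on every array, and 3 of the 9 that could be read were tested. KRT10, the keratin of early epidermal differentiation, was at -0.10 in HMW, -0.91 in LMW and 0.11 in Total and did not pass. KRT16, a stress keratin (1.68), and KRT80 (1.42) rose in LMW, and KRT80 rose in Total (1.53). KRT80 was at background in WT Total (5.33 after 10 Gy, 5.26 in mock cells), so its difference there has no exact size. In HMW KRT16 was at 0.55 and KRT80 at 0.62, and neither passed. The late markers LORICRIN and FLG and the suprabasal keratins KRT1 and KRT2 were thus at background in cells of both genotypes.

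Among 22 tested transcription factors of squamous epithelia, 6 rose and 1 fell in each pool, where 5.82% of all tested genes rose and 4.09% fell in HMW and 10.3% rose and 5.1% fell in LMW. In Total 10 rose and 3 fell, against 20.7% and 19.8% of all tested genes, with medians of 0.60 in HMW, 0.76 in LMW and 0.28 in Total. GRHL3, a grainyhead factor of the epidermal barrier, had levels of 6.20 (10 Gy) and 6.05 (mock) in 4GKD HMW, against 4.53 and 3.94 in WT HMW, but reached 6 on the 4 4GKD pool arrays alone. Its differences of 1.89 in HMW and 2.95 in LMW have no exact size, since with values below 6 set to 6 they were 0.12 and 0.35 and did not pass. In Total it was below 6 on every array. PRDM1, a repressor of terminally differentiating cells, rose by 1.84 in HMW and 1.82 in LMW and was at 0.28 in Total (adjusted p = 0.225 in limma). Every LMW level of PRDM1 was below 6 (3.32 to 5.96), and so were its WT HMW levels, 5.88 (10 Gy) and 3.85 (mock). Its pool differences therefore have no exact size. In the irradiated pair alone PRDM1 was at 0.92 in HMW and 0.99 in LMW. In the limma fit of all 12 arrays it missed the threshold in HMW (adjusted p = 0.0725). PPARD, a lipid-sensing nuclear receptor, fell in HMW (-1.58), LMW (-2.27) and Total (-1.11). Of 15 other tested ETS family genes, ELF1 rose in LMW (1.61) and 4 fell in Total, among them FLI1 (-0.84) and ETS2 (-0.73), and the others did not pass, with medians of -0.01, -0.28 and -0.06.

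Of 12 tested epidermal proteases and their inhibitors, 2 rose in HMW, 4 rose and 1 fell in LMW, and 4 rose and 3 fell in Total. Of all tested genes 5.82% rose in HMW, 10.3% rose and 5.1% fell in LMW, and 20.7% rose and 19.8% fell in Total. PRSS8, the channel-activating protease prostasin, rose by 1.28 in HMW, 1.44 in LMW and 1.17 in Total. WT levels of PRSS8 were close to background (5.21 to 6.22), so these differences have no exact size. The PRSS8 calls were lost in HMW with quantile normalisation (adjusted p = 0.0509 in limma) and in Total in the fit of all 12 arrays (adjusted p = 0.0905). CST3, the cysteine protease inhibitor cystatin C, rose by 1.18 in HMW and was at 0.02 in Total. With cross-hybridising probe sets left out of the fit, its HMW difference was the same 1.18, but its call was lost (adjusted p = 0.0529 in limma). PI3, the elastase inhibitor elafin, was at -0.97 in HMW and fell in LMW (-1.33). Of the other clade B serpins 3 were tested, of which SERPINB1 (0.46) and SERPINB8 (0.57) rose in Total. In HMW they were at 0.50 and 0.38 and in LMW at 0.55 and 0.40, and they did not pass there. Of 4 tested aquaporin and calcium-activated chloride channel genes, ANO10 rose in LMW (1.78) and was at 0.72 in HMW and 0.04 in Total.

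SPRR1A, SPRR3, SPRR1B and IVL lie in the epidermal differentiation complex on chromosome 1, a run of 62 protein-coding genes from S100A10 to S100A13, of which 39 were on the array and 17 tested. Mean 4GKD minus WT differences of at least 1 in the pools were found for SPRR1A, SPRR1B, S100A7 (3.43), S100A8 (1.93) and S100A9 (1.28), the last 3 named after their values were seen. The share of all tested genes with such a mean was not counted, so nothing is read from their number in this run. S100A7 passed the filter through 4GKD arrays only. Its WT pool levels were at background (4.14 to 4.49), so its difference has no exact size. S100A7, S100A8 and S100A9 are calcium-binding proteins of inflamed and differentiating epidermis. In Total their means were 0.48, -0.64 and -0.04. The other 12 tested genes of the run were below 1, and LCE3D (-1.42) and S100A4 (-1.78), also named after the values were seen, were lowest.

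Markers of other cell types and of proliferation moved with the genotype as well. Of all tested genes 5.82% rose and 4.09% fell in HMW, 10.3% and 5.1% in LMW, and 20.7% and 19.8% in Total. Of 6 basal epithelial markers 3 rose and 1 fell in 4GKD HMW and 5 rose in LMW, led by KRT15 (2.11 and 1.94) and ITGB4 (1.98 and 2.88). By the median of its probe sets ITGB4 was at 0.16 in HMW and 0.51 in LMW and did not pass. In Total 2 basal markers rose and 2 fell, KRT14 (-1.29) and KRT5 (-0.73). The mean log2 level of the 6 was 11.57 to 11.80 over the 4GKD pool arrays, against 10.09 to 10.96 over the WT pool arrays. Of 7 tested luminal mammary markers 3 rose in HMW and 4 in LMW, with EPCAM (2.14 and 2.14) and CD24 (2.42 and 1.58). In the irradiated pair alone EPCAM was at 1.51 and 1.36, and CD24 was at 2.04 and 0.74. KRT19, PGR, FOXA1, KIT and PROM1 were below 6 throughout, and the mean of the 12 luminal markers was 7.18 to 7.28 in 4GKD pools, against 6.49 to 6.65 in WT pools. Of 6 proliferation genes 4 fell in 4GKD HMW, with MCM2 (-2.23) and CCNB1 (-1.67), and 6 fell in Total. In LMW 2 fell and 1 rose, TOP2A (2.08), while MCM2 was at -0.24 and did not pass. Their mean was 8.25 to 9.21 in 4GKD Total, against 10.65 to 10.74 in WT Total. Of the fibroblast markers 5 of 7 and of the blood markers 3 of 4 were below 6 on every array. COL1A1 rose in 4GKD LMW (2.03) and Total (0.78), and CD14 fell in Total (-1.17). The part of these shifts in the levels of the 10 genes was not tested.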

How the data were processed

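RNA from MCF10A polysome pools and total RNA was measured on 12 arrays of 54675 probe sets, 1 array per genotype, treatment and preparation. The authors deposited probe set intensity values on a linear scale, made with RMA per the submitters' processing notes. The sources used here name neither its version nor the arrays that were normalised jointly. Values were turned to log2. Median intensities were 22.6 to 24.4 per array. The number of arrays limits the precision.

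Of the probe sets, 41097 had 1 gene symbol and only these were used, 1801 had several and 11777 had none in the annotation table. Symbols were matched through gene identifiers to RefSeq (GRCh38.p14) for 41043. A gene was read from its probe set with the highest mean, and tested if it reached 6 on at least 4 arrays. limma 3.58.1 in R 4.3.3 was used (lmFit, eBayes with an intensity trend, Benjamini-Hochberg at 0.05 over all 10157 genes). Genotype and treatment were fitted together on the 4 arrays of a preparation, which leaves 1 residual degree of freedom. In HMW and LMW the spread was pooled completely over genes. Preparations were compared on 8 arrays with the condition as a block (3 residual degrees of freedom). Differences are log2. The scripts were tested on simulated data.

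The 10 genes, the gene lists and the tests were chosen with earlier results of these data known, so the p-values are a description and no independent support. SERPINB3 had been singled out in those results, and its knockdown effects have no p-value. Named are the 10 genes, EIF4G1, the 2 highest and 2 lowest genes of a list in a comparison, and the 3 genes most correlated with each tested member, with the exceptions stated in the text. Alternatives were other filters, the median of all probe sets, no cross-hybridising probe sets (names ending in _x_at or _s_at), quantile normalisation, a floor at 6, no intensity trend, no condition block, conditions or pairs left out, and all 12 arrays in 1 fit.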

Additional observations from a re-analysis of the deposited data

Results flagged for a closer look

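Among the tested genes SERPINB3 and CLCA2 stood out on their main probe sets. Every 4GKD minus WT pair went one way in the pools and every pair the other way in Total. SERPINB4 had the same signs, but was below 6 on 11 arrays and not tested. For SERPINB3 the mean was 3.39 over the 4 pool pairs and -1.43 over the 2 Total pairs. For CLCA2 it was 2.93 over the pool pairs and -0.11 over the Total pairs, of which the second is within the spread of the Total arrays. Other CLCA2 probe sets gave 0.20 and 0.11 in the irradiated Total pair, so its sign in Total is not settled. These differences between pools and Total were not tested.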

How the results depend on the processing

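The counts of genes passing in the knockdown comparisons were 1006 in HMW, 1565 in LMW and 4113 in Total, for 10 Gy 48, 38 and 18, and between preparations 4134 (HMW against LMW), 3657 (HMW against Total) and 5750 (LMW against Total). With no filter the 10 Gy counts were 124, 24 and 39, and LMW against Total gave 10570. With the filter at 7 the 10 Gy counts were 20, 3 and 46. The median of all probe sets gave 15, 15 and 6 for 10 Gy and 2692 for the knockdown in Total. Without cross-hybridising probe sets the knockdown counts were 575 in HMW and 943 in LMW, 10 Gy gave 8 in LMW and 6 in Total, and HMW against Total gave 2321. Quantile normalisation gave 9, 4 and 155 for 10 Gy, and the floor at 6 gave 14, 4 and 10. Without an intensity trend limma called 0 genes for 10 Gy in Total (1146 at an unadjusted p under 0.05). With all 12 arrays in 1 fit it called 0, 0 and 0 for 10 Gy (931, 929 and 61 at an unadjusted p under 0.05), and 107 for the knockdown in Total. Without the condition block HMW against LMW gave 55. Leaving out each condition in turn gave 2283 to 4593 genes for HMW against LMW, 1659 to 4496 for HMW against Total and 4334 to 5488 for LMW against Total, with the lowest counts without WT mock for HMW against LMW and without irradiated WT for HMW against Total.

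Some small differences changed sign. By the median of probe sets the knockdown differences in Total were 0.016 for SPRR1A, -0.062 for AQP3 and -0.023 for KRT10, and the 10 Gy difference in Total was 0.027 for AQP3. Without cross-hybridising probe sets SPRR1A in Total was at 0.082 for the knockdown and 0.23 for 10 Gy. AQP3 for 10 Gy in Total was at 0.014 with quantile normalisation and 0.017 with the floor, and ELF3 for 10 Gy was at 0.044 in HMW and -0.036 in LMW with the floor. SERPINB3 ran from -0.75 to 1.34 for HMW against Total and from -1.8 to 0.52 for LMW against Total when 1 condition was left out, so neither has a settled sign. The cause was not tested. Of the compared values, 1069 were counted as unchanged, 65 lost and 23 gained a call, and 13 changed sign. The 1069 include single pairs, which have no call and were counted as unchanged unless a called difference changed sign. Sign changes between pairs are therefore missing from the 13. In Total, SPRR1A was at -0.29 (10 Gy pair) and 0.20 (mock pair), SPRR1B at -0.19 and 0.49, and ELF3 at 0.64 and -0.14. No paired analysis was possible because the labels give no replicate numbers to block on, and each group had 1 array. The block used between preparations is the condition.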
